A study of Mus musculus with 17 samples.

Results

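Serotonin is a signalling amine made from the amino acid tryptophan. The genes described here are the 7 that make, carry and break it down: Tph1 and Tph2, the tryptophan hydroxylases of the rate-limiting step; Ddc, the decarboxylase that forms serotonin itself; Slc6a4, the plasma membrane serotonin transporter; Slc18a2, the vesicular monoamine transporter; and Maoa and Maob, the monoamine oxidases. They were taken by symbol, with every probe annotated to them, 11 probes of the 46237 on the array and 7 of the 21946 genes with a symbol. Tph2 was picked because it had the largest rise on the high-fat diet, so its values are given as a description with no test. Of the 7 genes, 4 (Tph2, Ddc, Slc6a4 and Maob) had a probe above background on at least 2 arrays and entered the fit of 16825 genes; Tph1, Slc18a2 and Maoa did not.

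The data are 17 Illumina bead arrays of epididymal adipose tissue, the white fat beside the epididymis, from mice of the WBB6F1 background (WB X C57Bl/6). The 3 genotypes were Cpa3+/+ (wild type), Cpa3Cre/+ (Cre inserted at the mast cell gene Cpa3, a line known to lack mast cells) and KitW/Wv (mutant alleles of the receptor Kit at both copies, which also lacks mast cells and has defects in other blood lineages and in germ and pigment cells). Each was fed a high-fat diet (HFD, 60% of energy as fat) or the control food, which the sample labels call LFD and the protocol calls chow with 6% fat. Feeding lasted 12 weeks, and the fat pad was collected in the morning once food had been withheld for 5 h. Cpa3+/+ on HFD had 2 arrays and every other group had 3. The labels give no age and do not say whether each array is a separate animal or a pool, so the spread behind each p-value is that between these samples and may be technical. In KitW/Wv alone, the lack of mast cells and the loss of Kit function in other cells cannot be told apart.

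In mice, Tph1 is known as the enzyme of the gut, of mast cells and of other tissues outside the brain, and Tph2 as the enzyme of serotonin neurons. Both need the cofactor tetrahydrobiopterin. Serotonin released in the body is taken up by platelets through Slc6a4, and in mouse adipose tissue it is known to act on fat storage and heat production. After uptake into a cell it is either packed into vesicles by Slc18a2 or oxidised by Maoa and Maob to an aldehyde that aldehyde dehydrogenases clear.

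The adipocyte hormone gene Adipoq was detected on all 17 arrays at a log2 normalized intensity of 13.58 to 14.02, so the labelled tissue carried its defining marker. Between 46.9% and 51.7% of probes were detected per array, and the number of arrays limits the precision. Of the arrays, 3 stood apart by markers of other tissues, with no cut-off set. Cpa3+/+ LFD array 3 had a mean of 2.94 log2 units above the 17-array average over 6 epididymis and testis genes. Cpa3Cre/+ LFD array 2 had 1.82 over 7 skeletal muscle genes. KitW/Wv HFD array 1 had 2.30 over 3 B cell genes and 1.46 over the muscle genes. The B cell genes were above average on every KitW/Wv array, at 0.25 to 2.30, so they do not mark that array alone. The diet differences of Ddc and Maob in Cpa3+/+ are given below with and without Cpa3+/+ LFD array 3. Other values include these arrays unless stated. Across all genes, 4.65% passed the threshold (adjusted p under 0.05, limma with Benjamini-Hochberg adjustment over 16825 genes) for the diet difference in Cpa3+/+ (3.46% higher on HFD and 1.19% lower), 9.2% in Cpa3Cre/+ (5.96% higher and 3.25% lower) and 0.00594% in KitW/Wv.

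Tph2 was high on the 5 HFD arrays of Cpa3+/+ and Cpa3Cre/+ and near background on the other 12. In Cpa3+/+ on HFD its deposited intensity was 3885 and 4509, and in Cpa3Cre/+ on HFD it was 4129, 3547 and 4742. On LFD it was 108, 123 and 116 in Cpa3+/+ and 135, 94.0 and 135 in Cpa3Cre/+. In KitW/Wv it was 120, 126 and 109 on HFD and 96.3, 107 and 120 on LFD. The HFD arrays of KitW/Wv lay within the range of the LFD arrays of the 3 genotypes, and no array fell between the 5 high ones and the 12 others: the gap was 5.58 log2 units, while the high arrays spanned 11.55 to 12.13 and the others 4.20 to 5.97 on the normalized log2 scale. HFD arrays all above LFD arrays, as for Tph2 in the 2 genotypes it was picked on, were seen in 17.6% of all genes in Cpa3+/+ and 12.7% in Cpa3Cre/+, against 5.27% in KitW/Wv, where the Tph2 groups overlapped. The probe was detected on 15 of 17 arrays, the exceptions being Cpa3Cre/+ LFD array 2 and KitW/Wv LFD array 1. It is the only probe annotated to Tph2 on the array, so no other probe could be compared. Whether its signal came only from Tph2 RNA was not tested.

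**Figure D1:**
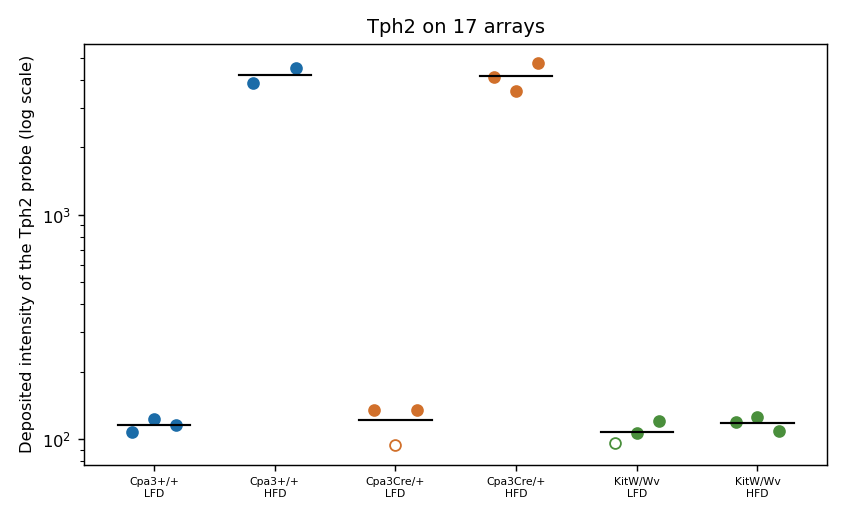
Deposited intensity of the Tph2 probe (log axis) on each of the 17 arrays by genotype and diet. Points are arrays (hollow where not detected) and lines are group means; the 5 HFD arrays of Cpa3+/+ and Cpa3Cre/+ sit between 3547 and 4742 and all other arrays at 135 or below.

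The order of the Tph2 group means was Cpa3+/+ HFD at 12.00 (SD 0.19, n = 2), Cpa3Cre/+ HFD at 11.75 (SD 0.23, n = 3), Cpa3Cre/+ LFD at 5.37 (SD 1.02, n = 3), KitW/Wv HFD at 5.21 (SD 0.37, n = 3), Cpa3+/+ LFD at 5.18 (SD 0.60, n = 3) and KitW/Wv LFD at 4.81 (SD 0.51, n = 3). The first pair of groups overlapped in their arrays, as did the last 4, and the only break in the order larger than the spread of arrays lay between Cpa3Cre/+ HFD and Cpa3Cre/+ LFD. As a description, the diet difference was 6.82 log2 units in Cpa3+/+ and 6.37 in Cpa3Cre/+. Just below Tph2 in size were Itgad, an integrin subunit of macrophages, at 5.46 in Cpa3+/+ and 5.96 in Cpa3Cre/+, then Lipf, a gastric lipase, at 5.23 in Cpa3+/+ and Ubd, a ubiquitin-like protein induced by interferon and inflammation, at 5.32 in Cpa3Cre/+. The size depends on the background correction, because the LFD arrays were close to background: with no background correction the same differences were 5.14 and 4.83.

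In KitW/Wv the difference was 0.395 log2 units, with the arrays of the 2 diets overlapping. It is given as a description too, since the gene was picked with the values of all 6 groups in view. The probe measures RNA from whole tissue, so fewer cells of a type and less RNA per cell cannot be told apart for any gene here.

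The sequence just upstream of the Tph2 start is shown because the signal of its probe differed so much between arrays. Those of Tph1, the other hydroxylase, and of Htr2b, the receptor that moved in the same comparisons, are shown beside it. Each is the 250 bases before the annotated start on the minus strand, from RefSeq (GRCm38.p6), with matches in capitals to TATAAA (the TATA box), TGANTCA (the AP-1 motif) or GAGGAA (the core bound by PU.1, the macrophage and myeloid factor), searched on both strands:
Tph2 chr10:115185023-115185272: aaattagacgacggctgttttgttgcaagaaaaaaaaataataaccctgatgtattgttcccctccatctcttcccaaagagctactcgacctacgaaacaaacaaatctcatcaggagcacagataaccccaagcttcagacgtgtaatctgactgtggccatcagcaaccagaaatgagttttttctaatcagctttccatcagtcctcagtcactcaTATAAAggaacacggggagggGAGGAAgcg
Tph1 chr7:46672538-46672787: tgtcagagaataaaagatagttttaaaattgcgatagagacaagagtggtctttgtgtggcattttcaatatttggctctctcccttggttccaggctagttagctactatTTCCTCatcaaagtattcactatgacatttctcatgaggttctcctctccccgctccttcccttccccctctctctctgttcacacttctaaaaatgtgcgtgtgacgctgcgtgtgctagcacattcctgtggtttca
Htr2b chr1:86111981-86112230: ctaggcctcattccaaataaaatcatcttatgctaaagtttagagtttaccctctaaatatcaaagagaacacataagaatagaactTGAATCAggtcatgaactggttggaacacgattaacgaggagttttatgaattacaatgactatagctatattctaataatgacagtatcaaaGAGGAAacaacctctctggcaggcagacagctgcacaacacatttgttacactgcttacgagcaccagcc
The Tph2 window held TATAAA at 30 to 25 bases before the start and GAGGAA at 9 to 4. The Tph1 window held GAGGAA on the minus strand of the window, printed as TTCCTC, at 139 to 134 bases before the start. The Htr2b window held TGANTCA as TGAATCA at 163 to 157 and GAGGAA at 70 to 65. Of 32851 RefSeq promoters of the same length, 12.4% held TATAAA, 6.75% held TGANTCA and 23.3% held GAGGAA, and a match describes the letters and is not shown to be a site. Tph2 lies on chromosome 10 (115078641 to 115185022) and Tph1 on chromosome 7 (46644641 to 46672537). Tph1 has 2 annotated starts, of which 1 is shown. The Htr2b start used, at 86111980, lies inside the annotated span of that gene (86097546 to 86116231). The Htr2b window is therefore within the gene span and not upstream of its outer end.

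Over all 17 arrays, the genes whose log2 values followed those of Tph2 most closely were Otop1, a proton channel (Pearson r = 0.988), Kcnj14, an inward-rectifier potassium channel (0.980), Ncan, a proteoglycan of brain matrix (0.979), Itgad (0.979) and Acoxl, an acyl-CoA oxidase-like protein (0.970). The arrays form 2 clusters, so these values describe the split of 5 arrays from 12 more than a graded relation, and the genes share the same arrays, labelling and background. Otop1 spanned 8.23 to 8.59 on the 5 high arrays and 4.89 to 6.09 on the others, and Ncan spanned 8.09 to 8.78 against 4.13 to 4.71. Kcnj14 and Acoxl were each detected on 1 of the 12 other arrays, and Ncan on 2. For Tph1 no such genes are named, because its probe did not pass the filter.

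**Figure D2:**
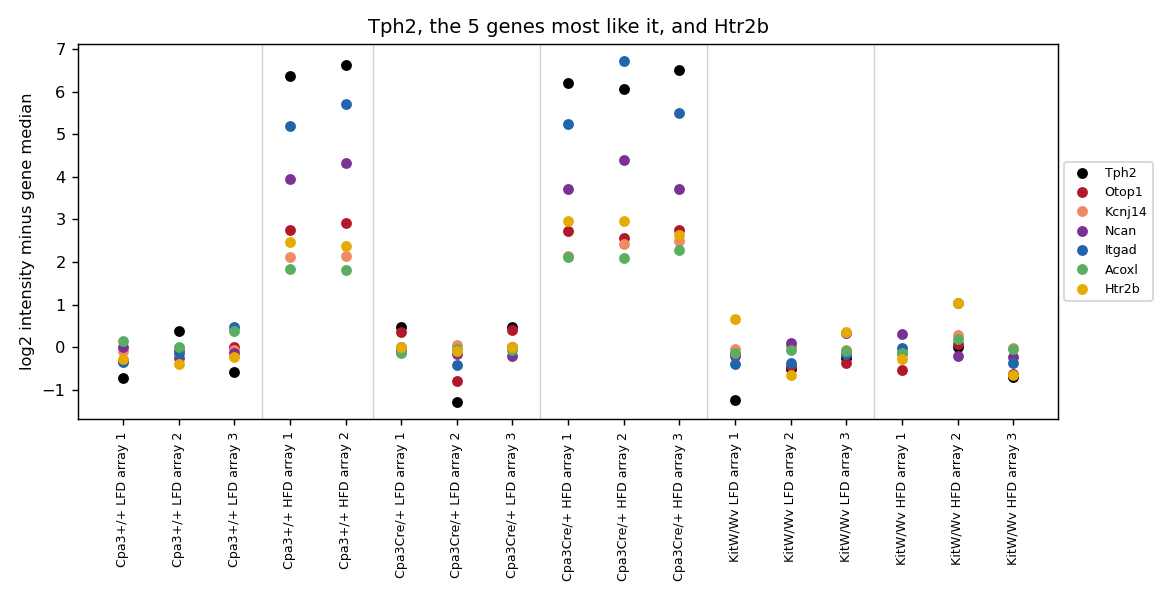
Log2 normalized intensity minus each gene's own median over 17 arrays, by array, for Tph2, the 5 genes most like it and Htr2b. On the 5 HFD arrays of Cpa3+/+ and Cpa3Cre/+ all 7 genes stood above their medians, and Tph2 and Itgad stood farthest above; on KitW/Wv HFD arrays they did not form such a group.

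Tph1, which in mice is the main enzyme outside the brain and is expressed by mast cells, gave no usable signal in any group. Its probe was detected on 1 of 17 arrays, Cpa3+/+ LFD array 1 at an intensity of 106, and spanned 85.3 to 106 over all arrays. The Tph1 arrays of HFD and LFD overlapped in every genotype, and those of Cpa3+/+, the genotype with high mast cell markers, overlapped those of both mutants. A probe that is not well above background has only an upper bound.

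Ddc, the aromatic amino acid decarboxylase that also makes dopamine, did not pass the test in any comparison. Its better probe was detected on 11 of 17 arrays, at 152, 96.7 and 440 in Cpa3+/+ on LFD and 139 and 94.98 on HFD. In Cpa3Cre/+ it was 103, 175 and 113 on LFD and 140, 108 and 141 on HFD, and in KitW/Wv it was 98.8, 92.7 and 118 on LFD and 104, 95.3 and 95.2 on HFD. The highest array, Cpa3+/+ LFD array 3, is the one with epididymis and testis RNA, and the second Ddc probe with signal was also highest there, at 301. Whether that tissue carried the Ddc signal was not tested. The diet difference was -1.13 log2 units in Cpa3+/+ (SE 0.85, 95% interval -2.95 to 0.69, limma adjusted p = 0.55) and -0.07 without that array. In Cpa3Cre/+ and KitW/Wv it was -0.03 (limma adjusted p = 0.992) and -0.22 (limma adjusted p = 1). The other Ddc probe was not detected on any array.

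Slc6a4, the transporter that clears serotonin from outside the cell, was detected on all 17 arrays at low intensity and passed the test in none of the comparisons. In Cpa3+/+ it was 181, 111 and 145 on LFD and 129 and 114 on HFD. In Cpa3Cre/+ it was 100, 135 and 119 on LFD and 120, 115 and 107 on HFD. In KitW/Wv it was 123, 115 and 138 on LFD and 145, 116 and 143 on HFD. The diet groups overlapped in every genotype, and the differences were -0.37 (SE 0.40, 95% interval -1.23 to 0.48, limma adjusted p = 0.705) in Cpa3+/+, -0.28 (limma adjusted p = 0.744) in Cpa3Cre/+ and 0.18 (limma adjusted p = 1) in KitW/Wv. The other Slc6a4 probe was detected on 2 arrays, Cpa3+/+ LFD arrays 1 and 3. Slc18a2, the transporter that loads serotonin and histamine into the vesicles of neurons and mast cells, was not detected on any array, with intensities of 84.8 to 104. Slc6a4 lies on chromosome 11 (76998597 to 77032343) and Slc18a2 on chromosome 19 (59260878 to 59296012).

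**Figure D3:**
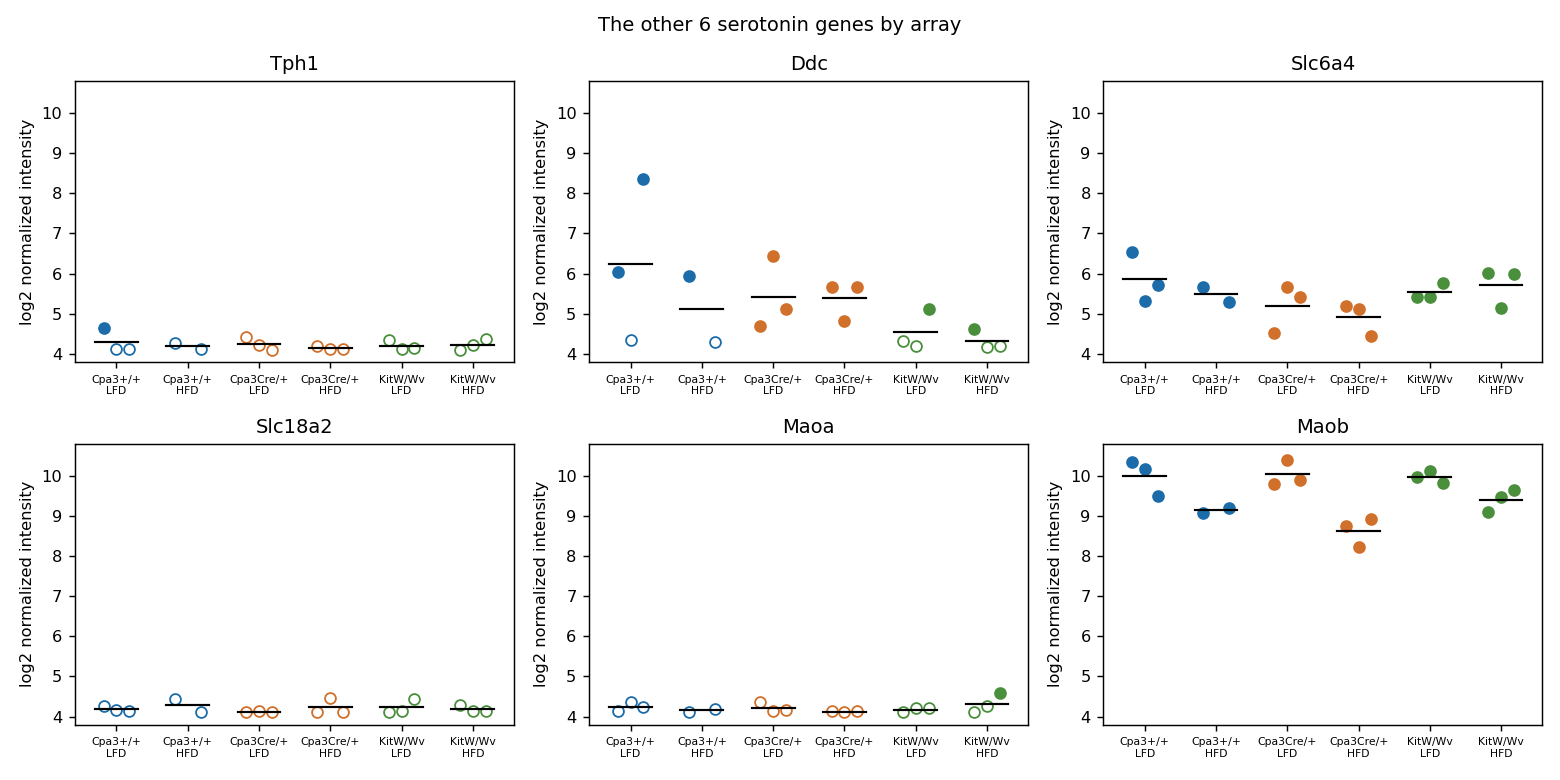
Log2 normalized intensity of the other 6 genes on each array by genotype and diet (points, hollow where not detected; lines, group means). Tph1, Slc18a2 and Maoa lay at background, Ddc and Slc6a4 overlapped between diets, and Maob was lower on every HFD array than on every LFD array of its genotype.

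Maob, which removes the amino group of serotonin, dopamine and other amines and lies on the X chromosome (16709281 to 16817366), was lower on HFD. In Cpa3+/+ its intensity was 1382, 991 and 836 on LFD and 603 and 632 on HFD. In Cpa3Cre/+ it was 975, 1415 and 914 on LFD and 638, 431 and 620 on HFD. In KitW/Wv it was 1034, 1017 and 940 on LFD and 612, 818 and 826 on HFD. Within each genotype every HFD array lay below every LFD array. That separation, HFD arrays all lower than LFD arrays, was seen in 16% of all genes in Cpa3+/+, 11.5% in Cpa3Cre/+ and 4.65% in KitW/Wv, and in all 3 genotypes together in 0.44% (74 genes). In Cpa3Cre/+ Maob fell by 1.41 log2 units, 2.65-fold (SE 0.25, 95% interval -1.93 to -0.88, limma adjusted p = 0.00193), against 3.25% of all genes called lower there. The value in Cpa3+/+ was -0.865 (SE 0.27, 95% interval -1.45 to -0.28, limma adjusted p = 0.0967), which missed the threshold; without LFD array 3 it was -1.11 (limma adjusted p = 0.026), and over all 5 single arrays left out it ranged to -0.69 and the adjusted p to 0.418. In KitW/Wv it was -0.584 (SE 0.25, 95% interval -1.11 to -0.06, limma adjusted p = 1). The diet effect of Cpa3Cre/+ minus that of Cpa3+/+ was -0.54 (limma adjusted p = 0.997), and that of KitW/Wv minus the mean of the other genotypes was 0.55 (limma adjusted p = 0.458), so no difference between genotypes in the effect passed the test. Maoa, which oxidises serotonin with high affinity, was at background on 16 of 17 arrays, spanning 86.2 to 105, the exception being KitW/Wv HFD array 3. The second Maob probe was not detected on any array.

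**Figure D4:**
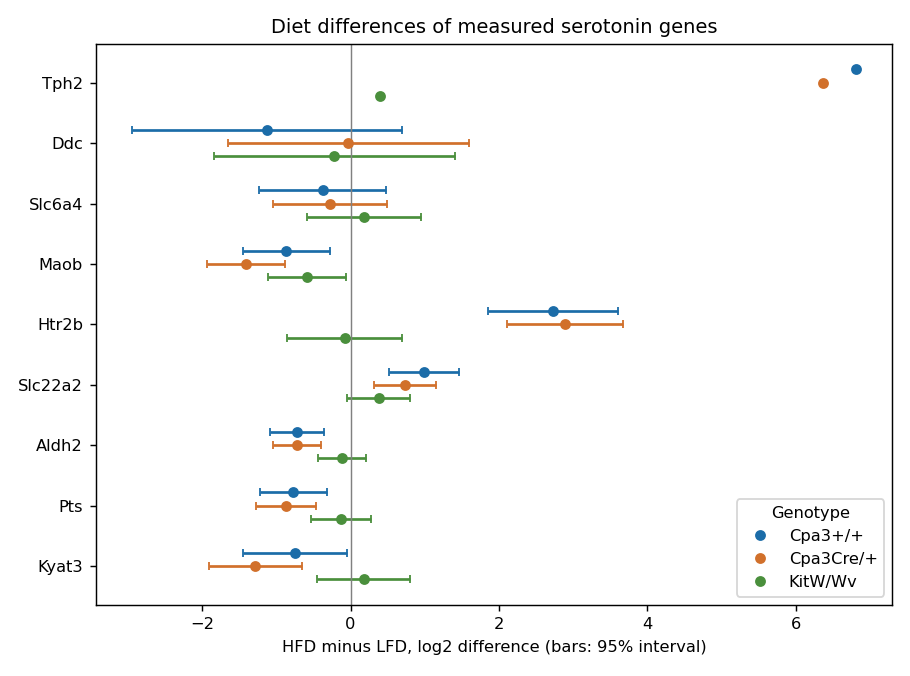
HFD minus LFD differences (log2) of the serotonin genes and of pathway genes past the threshold, by genotype; points are limma estimates and bars are 95% intervals, which are left out for Tph2 because it was picked for its diet rise. Htr2b rose by 2.73 and 2.89 in Cpa3+/+ and Cpa3Cre/+ and was -0.08 in KitW/Wv, while Maob lay below 0 in all 3 genotypes.

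Of the tested members, 0 of 3 passed the threshold for diet in Cpa3+/+ and 1 of 3 (Maob) in Cpa3Cre/+, and 0 of the same 3 in KitW/Wv; Tph2 is not counted. The background for these comparisons is 4.65%, 9.2% and 0.00594%. At an unadjusted p under 0.05 each diet comparison counted 1 member, Maob, against 2932 of the 16825 genes in Cpa3+/+, 3539 in Cpa3Cre/+ and 574 in KitW/Wv. Between genotypes none of the 3 tested members passed: against Cpa3+/+ on HFD, 0.0416% of all genes were called in Cpa3Cre/+ and 2.4% in KitW/Wv, on LFD 0.0357% and 0.0475%, and 0.0892% for Cpa3+/+ against the mean of both others (0.0832% higher in Cpa3+/+). Nor did they pass when diet effects were compared between genotypes, where 0% and 3.2% of all genes were called. At an unadjusted p under 0.05 the only member in these 7 comparisons was Ddc, lower in KitW/Wv than in Cpa3+/+ on LFD at -1.70 log2 units (95% interval -3.33 to -0.07, limma adjusted p = 0.931), a comparison that includes the array with epididymis RNA and in which 870 of all genes had such a p; the other 6 comparisons had 583 to 2444.

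Among the wider serotonin genes, 1 receptor changed with diet. Htr2b, a receptor coupled to Gq that lies on chromosome 1 (86097546 to 86116231), had log2 values of 4.69, 4.59 and 4.75 on LFD and 7.45 and 7.36 on HFD in Cpa3+/+. In Cpa3Cre/+ it was 4.97, 4.88 and 4.98 on LFD and 7.94, 7.94 and 7.62 on HFD, and in KitW/Wv it was 5.65, 4.33 and 5.32 on LFD and 4.71, 6.02 and 4.33 on HFD. It rose by 2.73 (SE 0.41, limma adjusted p = 0.00129) in Cpa3+/+ and by 2.89 (SE 0.36, limma adjusted p = 0.000117) in Cpa3Cre/+, and was -0.08 in KitW/Wv (limma adjusted p = 1). The size depends on the processing: in the authors' normalized table the differences were 1.23 and 1.47, still past the threshold. The diet effect in KitW/Wv minus the mean of the others was -2.89 (SE 0.45, limma adjusted p = 0.00277), where 2.51% of all genes were called lower and 0.684% higher, and was -1.38 from the authors' normalized table, a comparison that shares its Cpa3+/+ and Cpa3Cre/+ arrays with the diet tests. On HFD it was lower in KitW/Wv than in Cpa3+/+ by a log2 difference of -2.38 (limma adjusted p = 0.00641), where 1.8% of all genes were called lower. It lost this call when either Cpa3+/+ HFD array was left out and in 1 of 10 other settings (limma adjusted p = 0.0675). It was the only one of 8 tested receptors (of 14 listed) called in either diet comparison; the median over the 8 was 0.14 in Cpa3+/+, 0.06 in Cpa3Cre/+ and -0.06 in KitW/Wv, with -0.02, -0.02 and 0.00 over all genes.

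In the other lists few genes passed. Of the 7 tested cofactor genes (of 8), Pts, which makes a precursor of tetrahydrobiopterin, fell by 0.87 (SE 0.19, limma adjusted p = 0.00881) in Cpa3Cre/+, from 9.82 to 10.10 on LFD arrays to 8.81 to 9.26 on HFD arrays, and the list medians in Cpa3+/+, Cpa3Cre/+ and KitW/Wv were 0.05, 0.05 and 0.06. Of 3 tested other monoamine transporters, Slc22a2, an organic cation transporter, rose in Cpa3+/+ (0.99, limma adjusted p = 0.0187) and in Cpa3Cre/+ (0.73, limma adjusted p = 0.0302). It was not detected on any of 3 Cpa3+/+ LFD arrays. With those values raised to each array's lowest detected value, the rise in Cpa3+/+ was 1.93-fold after background correction, a point estimate. Over single arrays left out, the Cpa3+/+ difference was 0.77 to 1.21. The list medians were 0.49, 0.45 and 0.15 in Cpa3+/+, Cpa3Cre/+ and KitW/Wv. Slc22a2 had log2 values of 4.21 to 4.46 on LFD and 5.10 to 5.54 on HFD in Cpa3+/+, close to background throughout. In the authors' normalized table, for which no background setting is given, its differences were 0.284 in Cpa3+/+ and 0.203 in Cpa3Cre/+. The second was no longer past the threshold (limma adjusted p = 0.0796). Of 12 kynurenine genes, which use tryptophan by another route, Kyat3, an aminotransferase, fell by 1.29 (SE 0.29, limma adjusted p = 0.0121) in Cpa3Cre/+, and Ido1, a first enzyme of that route, was -0.99, 0.35 and -0.13 without passing. Of 3 enzymes of later steps, Aldh2, which clears the aldehyde made by monoamine oxidase, fell by 0.72 in Cpa3+/+ (limma adjusted p = 0.0241) and by 0.72 in Cpa3Cre/+ (limma adjusted p = 0.00685). Its log2 values in Cpa3+/+ were 13.52 to 13.92 on LFD and 12.96 to 12.99 on HFD, in Cpa3Cre/+ 13.39 to 13.88 and 12.84 to 13.01, and in KitW/Wv 13.50 to 13.78 and 13.50 to 13.57, so the diets separated in the first pair of genotypes and overlapped in KitW/Wv. HFD arrays all below LFD arrays were seen in 16% of all genes in Cpa3+/+, 11.5% in Cpa3Cre/+ and 4.65% in KitW/Wv. These calls for Slc22a2, Aldh2, Pts and Kyat3 were each lost in at least 1 alternative setting. In Cpa3Cre/+, with single arrays left out, Slc22a2 lost its call in 4 of 6 runs, Kyat3 in 2, Pts in 1 and Aldh2 in 0. In the 10 other settings there, Slc22a2 lost it in 4, Pts in 2, and Kyat3 and Aldh2 in 1 each. In Cpa3+/+, Aldh2 lost it in 2 of 10 other settings and Slc22a2 in 1, and both also lost it when some single arrays were left out. None of the tested genes passed for diet among 1 related hydroxylase or catecholamine enzyme, 4 tryptophan uptake genes, 3 transglutaminases or 4 serotonergic transcription factors, with medians of 0.46, -0.02, 0.10 and 0.03 in Cpa3+/+, -0.00072, 0.41, 0.11 and -0.76 in Cpa3Cre/+, and 0.58, -0.04, 0.05 and -0.30 in KitW/Wv. The kynurenine list had medians of 0.21, 0.55 and -0.06 and the enzymes of later steps -0.72, -0.69 and -0.11 in the 3 genotypes.

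The 5 arrays with high Tph2 also had the highest macrophage markers. Of 12 macrophage genes (among them Adgre1, Cd68 and Itgax), 6 passed as higher on HFD in Cpa3+/+, 9 in Cpa3Cre/+ and 0 in KitW/Wv. Their medians were 1.08, 1.54 and 0.08. Of 11 genes of lipid-associated macrophages (among them Trem2 and Gpnmb), 7, 8 and 0 passed as higher, with medians of 2.14, 2.01 and 0.54. Of all genes, 3.46%, 5.96% and 0.00594% passed as higher. The counts of 0 in KitW/Wv therefore do not mean that no gene rose. Gpnmb had a difference of 2.50 there, rank 2 by rise among all genes tested. Mean deviations of the lipid-associated list were 1.30 to 1.68 on those 5 arrays and -1.27 to 0.22 on the other 12. Trem2 rose by 3.81 in Cpa3+/+ and 4.74 in Cpa3Cre/+ and was 1.01 in KitW/Wv, and Adgre1 rose by 1.73 and 2.40 and was 0.08. Mast cell genes (10 tested) were 1.37 to 2.04 above average in all 5 Cpa3+/+ arrays, of either diet, and -0.84 to -0.55 in both mutants; of them 0 passed for diet in each genotype. Neuron markers (9 tested) passed in none of the diet comparisons, with medians of 0.12, 0.02 and 0.18. Snap25, Nefl and Prph were not detected on any array. Stmn2, Uchl1 and Syn1 were detected on all 17 arrays, and Rbfox3 on 14 (log2 values 4.32 to 11.37 over all arrays). Platelet markers (8) did not pass either, and of 3 tested enterochromaffin and neuroendocrine genes 1 rose in Cpa3Cre/+ (Syp, limma adjusted p = 0.0495). B cell genes (3 tested) were higher in all 6 KitW/Wv arrays, at 0.25 to 2.30 above average, than in the other 11, at -0.80 to -0.05, and 2 of 3 passed for KitW/Wv against Cpa3+/+ on HFD (median 2.05); none passed for diet. The part of any of these cells in the Tph2, Htr2b or Maob results was not tested.

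**Figure D5:**
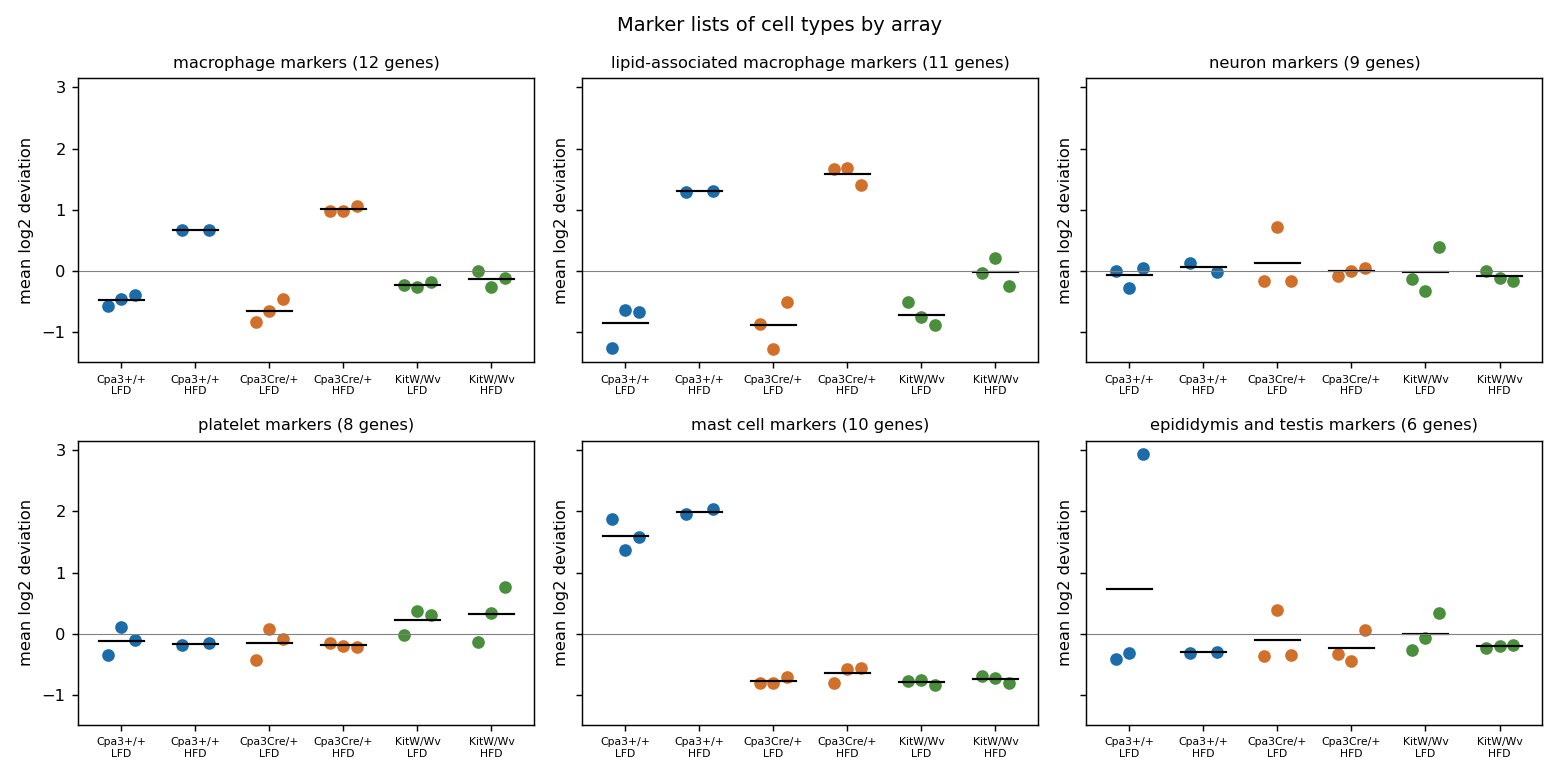
Mean log2 deviation from the 17-array average of 6 marker lists on each array by genotype and diet (points; lines are group means). The macrophage lists were high on the 5 HFD arrays of Cpa3+/+ and Cpa3Cre/+, the mast cell list was high in Cpa3+/+ on both diets, and the neuron and platelet lists did not separate these groups.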

How the data were processed

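Total RNA of mouse epididymal fat was measured on Illumina bead arrays. The authors deposited a table of non-normalized intensity per probe with a detection p-value, and a normalized table of intensity; GenomeStudio is named per the submitters' processing notes, with no version or background setting given there. The intensities were corrected with limma 3.58.1 (R 4.3.3; normexp fitted on detection p-values, offset 16), then quantile normalized and log2 transformed. Probes named by platform annotation (35784 with 1 symbol, 10453 with none) were kept where detection p was under 0.05 on at least 2 arrays, with each gene read from its brightest probe by mean. One limma fit gave 6 group means over all 17 arrays with Benjamini-Hochberg adjustment at 0.05; it was tested on simulated data. Tph2 was in the fit but is reported with no test, in KitW/Wv too, where a test had been planned. Members and lists were chosen with earlier results of these data known. The named genes are the 7 members, list genes past the threshold (at most 4 a list and comparison) and the 5 genes nearest to Tph2. Genes named besides these as examples (Ido1, Syp, and the markers Adgre1, Cd68, Itgax, Trem2, Gpnmb, Stmn2, Uchl1, Syn1 and Rbfox3) were chosen after their values were seen.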

Additional observations from a re-analysis of the deposited data

Results flagged for a closer look

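Htr2b was marked because its diet effect differed between genotypes by a test of the difference itself: the effect in KitW/Wv minus the mean of the effects in Cpa3+/+ and Cpa3Cre/+ was -2.89 log2 units (limma adjusted p = 0.00277). Every HFD array of Cpa3+/+ and Cpa3Cre/+ lay above every LFD array of its genotype, while those of KitW/Wv overlapped. HFD arrays all above LFD arrays were seen in 17.6% of all genes in Cpa3+/+, 12.7% in Cpa3Cre/+ and 5.27% in KitW/Wv.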

How the results depend on the processing

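The count of serotonin genes past the threshold for diet in Cpa3+/+ ranged from 0 to 1 when 1 array was left out, and was 1 when the 3 arrays with markers of other tissues were left out, an alternative chosen after seeing the data; in both cases Cpa3+/+ LFD array 3 was the one left out and Maob the gene gained. Maob in Cpa3Cre/+ stayed past the threshold in every setting run, with differences of -1.55 to -1.12 and adjusted p up to 0.028. Ddc in Cpa3Cre/+ changed sign to 0.074 with median scaling, 0.059 with the mean of all probes, 0.48 and 0.25 without its LFD or HFD array 2 (range over single arrays left out -0.391 to 0.48), and 0.48 without the 3 arrays; in KitW/Wv it was 0.0696 without LFD array 3 (range -0.392 to 0.0696). The causes were not tested. Tph2 was 5.15 and 4.83 with the authors' table, 5.14 and 4.83 with no background correction, 5.85 and 5.47 with offset 50, and 5.79 in Cpa3Cre/+ without its LFD array 2. All-gene diet counts moved, when only the groups compared were fitted, to 131 from 783 in Cpa3+/+ and to 766 from 1548 in Cpa3Cre/+; they were 224 and 240 without Cpa3+/+ HFD array 1 or 2 and 941 without Cpa3Cre/+ HFD array 2. In KitW/Wv the diet count was 0 to 2. The KitW/Wv against Cpa3+/+ count on HFD was 62 and 80 without either Cpa3+/+ array and 267 and 165 without KitW/Wv array 1 or 3, from 404. The count for the diet effect of KitW/Wv against the others was 327, 320 and 309, from 538, without Cpa3+/+ HFD array 1, KitW/Wv LFD array 3 or KitW/Wv HFD array 3; that of Cpa3+/+ against both others was 7, from 15, without Cpa3+/+ HFD array 2, and that of Cpa3Cre/+ against Cpa3+/+ on LFD was 2, from 6, with only those groups fitted. Calls for Slc22a2, Aldh2 and Kyat3 were lost with only the groups compared fitted (adjusted p = 0.114 and 0.186 in Cpa3+/+ for Slc22a2 and Aldh2, and 0.0684 for Kyat3 in Cpa3Cre/+). Under median scaling 86.8% of calls in Cpa3Cre/+ were higher against 64.7%, and the median gene moved to 0.12 for Cpa3Cre/+ minus Cpa3+/+ on HFD and 0.11 for the difference of their diet effects. With a replicate block Maob was -1.41 in Cpa3Cre/+ (adjusted p = 0.00484) and the count in KitW/Wv against Cpa3+/+ on HFD was 313 against 404; the block changed no diet call of the members and pathway genes named here; marker genes were not recomputed under it. Whether replicate numbers pair arrays could not be told. With group means removed, same-numbered arrays of different groups had correlations of -0.47 to 0.37 (median 0.07). Arrays with other numbers had -0.43 to 0.54 (median -0.03), and 7 of 17 arrays correlated best with their own number. These ranges overlap, so the check cannot exclude a shared batch.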
